A study of Mus musculus with 2 samples.

Results

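Microglia-rich spots were studied in 1 brain section profiled by Visium, an assay that counts transcripts in a grid of barcoded spots, each of which can hold several cells of different types. They were selected on measured values among spots over tissue that held 5000 to 15000 unique molecular identifiers (UMIs, single counted molecules). The score of a spot was its summed UMIs of C1qa, C1qb, C1qc, Cx3cr1, P2ry12, Csf1r, Trem2 and Tyrobp over all its UMIs, and the 150 spots of highest score were taken, of 1392 spots in the depth range and 2487 tissue spots in all. They were compared with the 148 spots of the same depth range that held 0 UMIs of all 8 genes. The 8 genes chose the spots, so their own levels are given as a description and support nothing.

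Microglia are the resident macrophages of the brain parenchyma. They sense neurons through CX3CR1 and the purine receptor P2RY12, depend on CSF1R for survival, and signal through TREM2 with its adaptor TYROBP. They are also the main source of the complement protein C1q in the brain, which tags synapses and debris for uptake. Macrophages of the meninges and of vessel walls share C1q, Csf1r and Tyrobp with them, so a spot can score through either kind of cell.

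The labels name 2 brain samples from male mice of 6 months: one G2-3, the genotype written as A53T alpha-synuclein, and one Wild Type. What drives the G2-3 transgene is not given in the sources used here, nor is any further allele. By its title the study ties synapses of the hippocampus to uptake by microglia. The count matrix deposited for the G2-3 sample was the same file as that for the wild-type sample, with all 2722 spot barcodes shared, so there was 1 library and no comparison of genotypes. Spots over tissue were taken from the wild-type position list, which does not assign a genotype to the library. With 1 library there is no replicate, so no test, p-value or standard error is given. Intervals are 95% intervals for counting error only, and spots of 1 section are not replicates of a condition.

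The microglia-rich spots held 5008 to 11554 UMIs, with a median of 6526.5, and the 0-UMI spots 5020 to 14807, with a median of 6997.5. The other 1242 spots of the range were deeper, with a median of 8552.5. A microglia-rich spot held 4 to 29 UMIs of the 8 score genes, with a median of 8, from 1 to 7 of the genes, with a median of 4. The lowest score among them was 7.79 per 10000 UMIs, from 8 UMIs of 10276, and the first spot outside had 7.78, from 4 UMIs of 5144. The highest was 41.5 per 10000, from 29 UMIs of 6986. C1qa supplied 627 of the 1238 score UMIs, or 50.6%, and was seen in 149 of the 150 spots. C1qc supplied 198, C1qb 119, Trem2 85, Cx3cr1 67, P2ry12 64, Tyrobp 56 and Csf1r 22. The 3 C1q genes thus weighed more in the choice than the receptors. A score from the 3 C1q genes alone kept 126 of the 150 spots, and a score from the other 5 genes kept 69. With the G2-3 position list 121 were kept.

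The microglia-rich spots were not spread evenly over the section. Spots were clustered without the genes of the cell type and function lists, and each cluster, or region, carries the names of its top 2 genes. The Mgp/Igf2 region, with Ptgds, Myoc, Acta2 and Fmod also among its 10 leading genes, held 35 of the 150, which were 53.8% of its 65 spots of the depth range (41.0 to 66.3%). Mgp, Igf2, Ptgds and Fmod are genes of the meninges, and Acta2 is one of arterial muscle. In the Ddn/Glis3 region, led by the dendritic transcript Ddn, 18 of 36 spots were microglia-rich (32.9 to 67.1%). A small region led by Ttr and Slc6a3 held 13 of 19 spots (68.4%), and one led by Gfap and Myoc held 5 of 8. By contrast, 6 of 148 spots were microglia-rich in the region led by Gpr161 and Fezf2, and 5 of 156 in that led by Myl4 and Ighm. The Ddn/Glis3 region counted 170 tissue spots, so most of it lay outside the depth range and was not scored.

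The 0-UMI spots lay elsewhere. The region led by Cartpt and Baiap3 held 31 of them, that led by Slc18a3 and Cartpt 26, that led by Tph2 and Slc18a2 21, and that led by Irx2 and Cdh23 20. The Mgp/Igf2 region held 1 and the Ddn/Glis3 region 0. A gene that differs between these regions can thus differ between both kinds of spot, so single genes, list medians and the main summed levels are also given within regions. The values within regions rest on 12 regions with both kinds, with 127 microglia-rich and 145 0-UMI spots. The other 23 microglia-rich spots had no 0-UMI spot in their region. The sets were uneven: 35 microglia-rich spots in the Mgp/Igf2 region, 13 in Ttr/Slc6a3 and 3 in Tshz2/Nrep had only 1 comparison spot per region. The part of these regions in the values within regions thus rests on 1 comparison spot each.

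**Figure D1:**
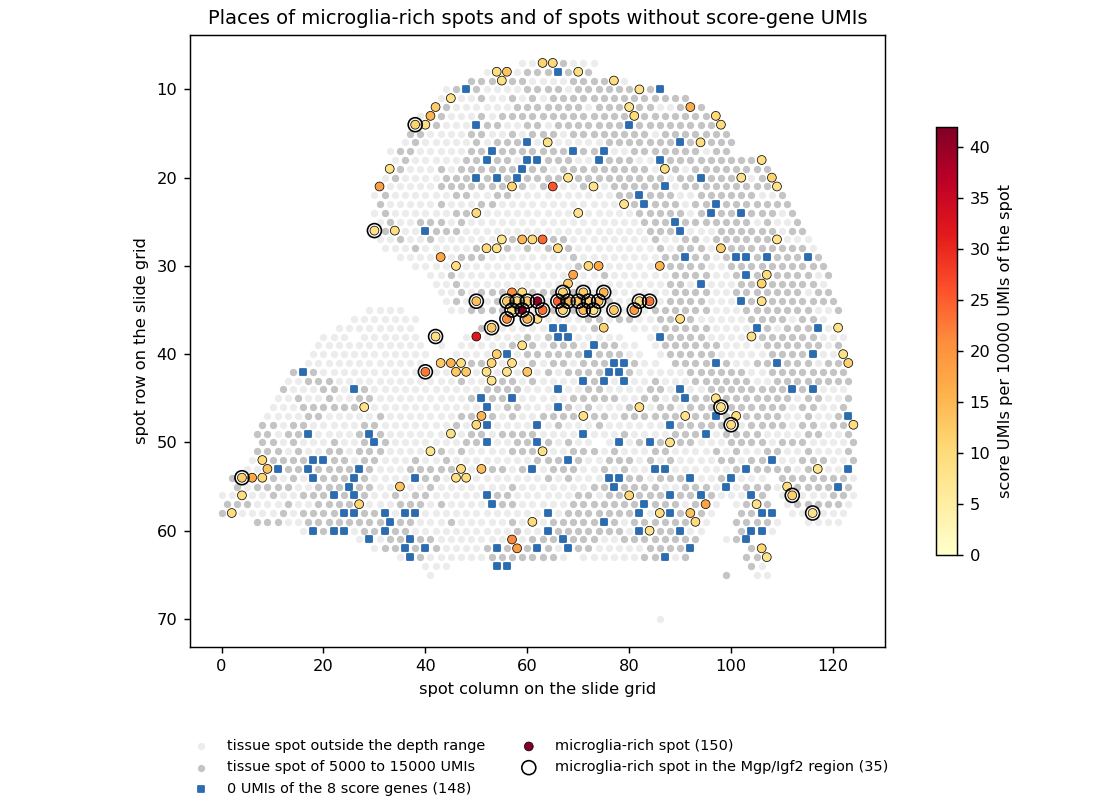
Grid column against grid row of each spot on the slide, with the 150 microglia-rich spots coloured by score UMIs per 10000 UMIs, the 148 spots with 0 score-gene UMIs as blue squares, and the 35 microglia-rich spots of the Mgp/Igf2 region ringed. A line of ringed spots lies between rows 33 and 36, from column 50 to column 84, and holds the highest score, 41.5. Of the 115 other microglia-rich spots, 27 lie at the edge of the tissue.

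Microglia-rich spots also lay together. Of the 150, 88 (58.7%, 50.3 to 66.6%) touched another one on the grid. The 0-UMI spots lay together too, with 74 of 148 (41.7 to 58.3%) touching another 0-UMI spot, an interval that overlaps the former, and 19 touched a microglia-rich spot. Among the neighbours of microglia-rich spots that were in the depth range, 30.8% were microglia-rich themselves, against 3.29% among neighbours of 0-UMI spots and 8.73% over the range. The 88 formed 26 groups, of which the largest had 13 and 12 spots and lay mainly in the Mgp/Igf2 region. At the edge of the tissue lay 37 of the 150 (24.7%), against 19 of the 148 (12.8%) and 153 of all 1392 spots in the range. In the region led by Clec18a and Igfn1, 10 of 13 microglia-rich spots were edge spots, against 36 of its 131 others. In the region led by Penk and Adam33 the counts were 10 of 15 against 13 of 95. The direction was not shared by all regions. In the Mgp/Igf2 region 10 of 35 microglia-rich spots were edge spots against 12 of 30 others, in the Tph2/Slc18a2 region 0 of 10 against 9 of 89, and in the Gfap/Myoc region 0 of 5 against 3 of 3. In the Ddn/Glis3 region 0 of the 18 spots of either kind were at the edge.

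The label was checked against 69 further microglia genes that the score did not use. Their summed level was 1874 CPM (UMIs scaled to a total of 1e6) in microglia-rich spots and 772 CPM in 0-UMI spots, a log2 ratio of 1.28 (1.17 to 1.40). Without the Mgp/Igf2 region it was 1683 against 773 CPM, a log2 ratio of 1.12 (1.00 to 1.25), and within regions the ratio was 0.74 (0.58 to 0.89). Microglia-rich spots held 1 to 51 UMIs of this list, with a median of 12, and 0-UMI spots 0 to 18, with a median of 5.5, so the 2 sets overlapped. More cells of a type in a spot and more RNA per cell cannot be told apart here, for this list or for those below. Of 66 list genes with any UMI, 63 had the higher CPM in microglia-rich spots, against 51.6% of all genes outside the score that were seen. The spots were thus richer in microglial transcripts by genes the rule did not use, but part of them carried other macrophage and meningeal genes, as described below.

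Region by region, the level of the 69 genes over all spots of the depth range was highest in the 4 regions with the highest shares of microglia-rich spots. It was 2467 CPM in the Ttr/Slc6a3 region (2181 to 2780), 2135 in the Mgp/Igf2 region (2003 to 2274) and 2107 in the Ddn/Glis3 region (1934 to 2292), whose intervals overlap. The lowest value, 723 CPM (682 to 767), was that of the Gpr161/Fezf2 region. The C1q genes made up 82.8% of score UMIs in the Mgp/Igf2 region (79.1 to 86.1%) and 65.5% in the Ddn/Glis3 region (59.0 to 71.6%). Ctss and Pld4, both genes of microglia, were among the 10 leading genes of the Ttr/Slc6a3 region.

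**Figure D2:**
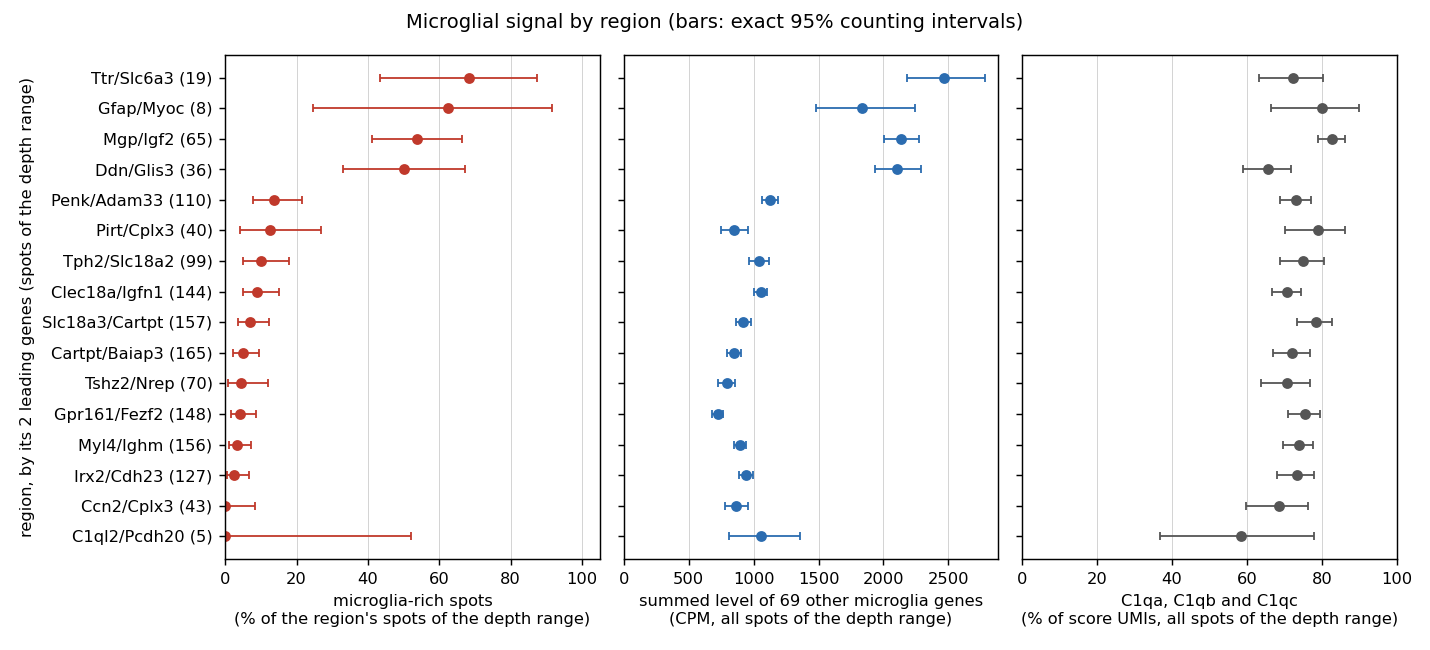
Share of each region's depth-range spots that were microglia-rich, summed CPM of the 69 other microglia genes, and share of score UMIs from C1qa, C1qb and C1qc, with exact 95% counting intervals and the number of spots in brackets. The Ttr/Slc6a3, Gfap/Myoc, Mgp/Igf2 and Ddn/Glis3 regions, with 8 to 65 spots each, have the highest shares and the highest levels of the list.

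Single microglia genes were compared where both sets together held at least 50 UMIs, which 7223 genes passed. At 1.5-fold or more, 11.3% of them were higher and 9.19% lower in microglia-rich spots, 20.4% in all, and the median over all was -0.07 on the log2 scale. Of the 69 other microglia genes 12 passed the minimum, of which 10 were higher by 1.5-fold and 0 lower, with a median log2 ratio of 1.65. Within regions 6952 genes passed, with 6.85% higher, 5.68% lower and a median of -0.01. There 7 of 11 microglia genes were higher and 0 lower, with a median of 0.82. That median rested on few genes and was 0.50 with 250 spots of highest score, 0.0077 over 3 genes and 0.23 over 6 in the lower and upper array columns, 0.19 over 2 genes at a minimum of 200 UMIs, and -0.13 over 3 genes in spots with 0 meningeal UMIs. Without the Mgp/Igf2 region 7.85% of 6710 genes were higher and 6.02% lower, and of 9 microglia genes 6 were higher and 0 lower. A gene seen mainly in microglia-rich spots passes the minimum only through them, so these counts are not counts over the list. The same limit holds for the lists below, and the shares of all genes given here stand beside their counts.

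Vsir, an immune checkpoint gene, had 75 UMIs in 54 of 150 microglia-rich spots, 0 to 3 per spot, and 19 UMIs in 18 of 148 0-UMI spots, 0 to 2 per spot. Its log2 ratio was 2.15 over all spots, 1.90 without the Mgp/Igf2 region, and 1.43 within regions (0.45 to 2.41). Ctss, a lysosomal protease gene, had 75 UMIs in 58 spots against 20 in 18, with 2.07 and, within regions, 1.14 (0.15 to 2.13). Selplg, the gene of the P-selectin ligand, had 101 against 36 UMIs, with 1.66 and 1.04 (0.39 to 1.68). Laptm5, a lysosomal membrane gene of blood-lineage cells, had 125 against 45 UMIs, with 1.64 and 0.82 (0.20 to 1.43). The ranges per spot overlapped for all 4, since most spots of either kind held 0 or 1 UMI.

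Not every gene of the list behaved alike. Itgb5, an integrin subunit, was higher by 0.74 over all spots and 0.64 within regions (0.18 to 1.10). Rgs10, a regulator of G protein signalling, had 203 against 189 UMIs, with 0.27 (-0.02 to 0.56) and -0.25 within regions (-0.63 to 0.12). Coro1a, an actin regulator of leukocytes, had 86 against 119 UMIs, with -0.30 and -0.35 within regions (-0.86 to 0.17). Rnase4 stood at 1.48 over all spots and 0.07 within regions (-1.12 to 1.25).

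Spots thinned to 5000 UMIs each gave the same order for single genes. A UMI of Laptm5 was then seen in 42.7% of microglia-rich spots (34.6 to 51.0%) and 14.9% of 0-UMI spots (9.56 to 21.6%), and before thinning in 51.3% and 24.3%. Selplg was seen in 33.3% against 13.5% after thinning, and Ctss in 32.0% against 10.8%. The 0-UMI spots were thus not free of microglial transcripts.

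**Figure D3:**
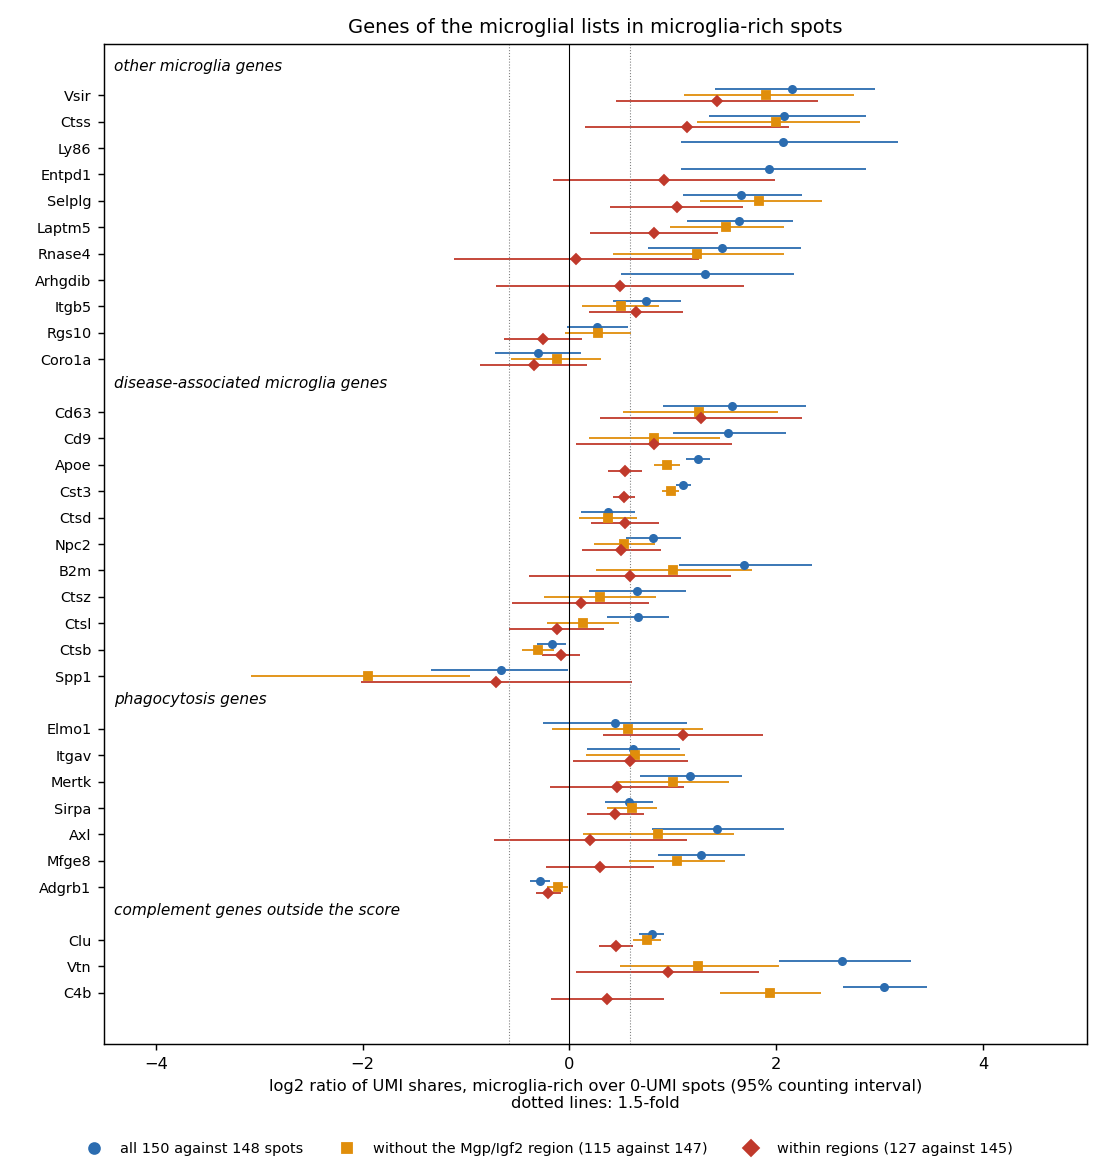
Log2 ratio of UMI shares, microglia-rich over 0-UMI spots, with 95% counting intervals, for reported genes of 4 lists with at least 50 UMIs over all spots (blue circles), without the Mgp/Igf2 region (orange squares) and within regions (red diamonds). Vsir goes from 2.15 over all spots to 1.43 within regions. C4b goes from 3.04 over all spots to 1.93 without the Mgp/Igf2 region and 0.36 within regions.

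Promoter sequence from RefSeq (build GRCm38.p6, which is mm10) was read for genes of this list, of which 53 of 69 matched the table. Shown are the 250 bases before the start of 3 microglia genes that were higher both over all spots and within regions, with GAGGAA, the core letters of sites bound by PU.1, the master transcription factor of macrophages, searched on both strands and set in capitals (TTCCTC is the reverse strand).
Ctss, chr3:95526536-95526785, plus strand: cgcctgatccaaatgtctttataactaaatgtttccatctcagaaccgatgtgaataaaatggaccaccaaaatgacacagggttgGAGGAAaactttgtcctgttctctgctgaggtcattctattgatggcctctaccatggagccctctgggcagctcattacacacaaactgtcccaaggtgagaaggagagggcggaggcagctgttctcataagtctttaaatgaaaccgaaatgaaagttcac
Laptm5, chr4:130913066-130913315, plus strand: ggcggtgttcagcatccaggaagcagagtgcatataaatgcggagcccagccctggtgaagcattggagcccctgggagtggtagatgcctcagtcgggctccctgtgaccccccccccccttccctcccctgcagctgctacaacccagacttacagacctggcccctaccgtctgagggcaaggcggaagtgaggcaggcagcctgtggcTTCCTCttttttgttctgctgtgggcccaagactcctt
Vsir, chr10:60346601-60346850, plus strand: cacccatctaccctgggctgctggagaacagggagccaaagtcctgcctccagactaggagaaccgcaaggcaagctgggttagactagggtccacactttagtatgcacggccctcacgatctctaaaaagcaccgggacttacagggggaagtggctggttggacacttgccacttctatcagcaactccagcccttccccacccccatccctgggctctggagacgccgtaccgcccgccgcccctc
The window of Ctss holds 1 match on the same strand, 164 bases before the start, and that of Laptm5 holds 1 on the other strand, 38 bases before it. That of Vsir holds 0. Of all 32851 promoter windows in the table, 23.3% hold the motif, and of the 68 windows of the list 27 do (39.7%). A match describes these letters alone.

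Among genes that microglia raise in disease, 8 were higher over all spots, several of which other cells express too. Of the 28 disease-associated genes in the panel 16 passed the minimum over all spots, with 8 higher and 1 lower by 1.5-fold and a median of 0.56. Of all genes 11.3% were higher there and 9.19% lower. Within regions 15 passed, with 2 higher, 1 lower and a median of 0.50, beside 6.85% of all genes higher and 5.68% lower, and the median was 0.14 to 0.27 under 8 other settings given in the closing section. Cst3, the gene of the protease inhibitor cystatin C, had 4 to 108 UMIs per microglia-rich spot, with a median of 21.5, and 4 to 61 per 0-UMI spot, with a median of 13. Its log2 ratio was 1.10 (1.03 to 1.18), and 0.53 within regions (0.43 to 0.63). Apoe, a lipid carrier made by astrocytes and activated microglia, had a median of 10 against 6 UMIs per spot, with 1.25 (1.13 to 1.36) and 0.54 within regions (0.37 to 0.70). Cd63, a tetraspanin of late endosomes, stood at 1.58 and 1.27 (0.30 to 2.25), and Cd9, a related tetraspanin, at 1.54 and 0.82 (0.06 to 1.57). The cathepsin gene Ctsd stood at 0.37 and 0.54 (0.21 to 0.87), while Ctsb, another cathepsin, stood at -0.17 and -0.08 (-0.27 to 0.10). Spp1, which encodes osteopontin, was the gene that was lower: it had 32 UMIs against 57, and within regions its log2 ratio was -0.71 (-2.01 to 0.60). It was among the 10 leading genes of the Irx2/Cdh23 region, which held 20 of the 0-UMI spots and 3 microglia-rich ones. Of those 32, 22 lay in the Mgp/Igf2 region, and without it the count was 10 against 57, a log2 ratio of -1.95 (-3.08 to -0.97).

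Phagocytosis genes, which the title of the series concerns, had a median near that of all genes within regions. Of the 33 in the panel 18 passed over all spots, with 4 higher, 2 lower and a median of 0.20. Within regions it was 17, with 2 higher, 0 lower and a median of 0.02 beside -0.01 for all genes. Of all genes 11.3% were higher and 9.19% lower over all spots, and within regions 6.85% and 5.68%. Among receptors, Axl stood at 1.42 over all spots but 0.20 within regions (-0.73 to 1.13), and Mertk at 1.17 but 0.46 (-0.18 to 1.11). Among bridging proteins, which link dying material to these receptors, Mfge8 stood at 1.27 but 0.29 (-0.23 to 0.82), and Gas6 at -0.12 and 0.02 (-0.36 to 0.39). Elmo1, which links receptors to the actin machinery, stood at 0.44 and 1.10 (0.33 to 1.87), on 36 against 34 UMIs. Itgav, an integrin of uptake, stood at 0.62 and 0.59 (0.03 to 1.14), and Sirpa, the receptor of the brake on uptake CD47, at 0.58 and 0.44 (0.17 to 0.72). Adgrb1, a neuronal and astrocytic receptor for dying cells, was slightly lower, at -0.28 and -0.21 (-0.33 to -0.09). Astrocytes also express Mertk, Axl and Mfge8, and the astrocyte list was higher in the same spots, as given below; its part in these values was not tested.

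Complement genes outside the score were higher in part. Of 19 with any UMI, 12 had the higher CPM in microglia-rich spots, or 63.2%, beside the 51.6% of all genes. Of 23 in the panel 7 passed, with 5 higher by 1.5-fold, 2 below 0 and a median of 1.00, and within regions 6, with 2 higher and a median of 0.45. At 1.5-fold, 11.3% of all genes were higher over all spots, and 6.85% within regions. C4b, made by astrocytes and oligodendrocytes, had 433 against 59 UMIs and stood at 3.04 over all spots and 0.36 within regions (-0.18 to 0.91). Without the Mgp/Igf2 region C4b had 132 against 51 UMIs and stood at 1.93 (1.46 to 2.43). Clu, an astrocytic chaperone that also inhibits complement, stood at 0.80 and 0.45 (0.28 to 0.61), and Vtn, a gene of pericytes, at 2.64 and 0.95 (0.06 to 1.84).

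Inflammatory genes were too sparse to describe one by one. Of 26 in the panel 1 passed the minimum, Nfkbia, an inhibitor that NF-kappa B induces, at 1.04 over all spots and 0.63 within regions (-0.34 to 1.60). The summed list held 149 UMIs in microglia-rich and 66 in 0-UMI spots, a log2 ratio of 1.34 (0.91 to 1.78), and without the Mgp/Igf2 region 77 against 63, or 0.85 (0.35 to 1.36). Within regions the sum stood at 0.38 (-0.22 to 0.98), an interval that includes 0. Interferon and major histocompatibility genes passed in 8 of 21 cases, with 7 higher, 0 lower and a median of 2.52. Within regions 7 passed, with 6 higher and a median of 1.02. Of all genes 11.3% were higher, and 6.85% within regions. The list held 881 UMIs in microglia-rich and 206 in 0-UMI spots, so its genes can pass the minimum through the former alone. Cd74, the invariant chain of class II molecules, had 177 UMIs, of which 152 lay in the Mgp/Igf2 region, against 10 in 0-UMI spots. Ifitm3, an interferon-induced membrane gene, stood at 3.51 and at 1.64 within regions (0.74 to 2.55). Without the Mgp/Igf2 region 2 genes of the list passed, with 1 higher. Against all other spots of the range within regions, 4 of 13 were higher, with a median of 0.29, beside 6.29% of all genes. Without the Mgp/Igf2 region in that comparison, 3 of 11 were higher and 1 lower, with a median of 0.21, beside 6.84% and 8.57%.

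Lysosomal genes as a group stood near all genes. Of 31 in the panel 23 passed, with 4 higher, 1 lower and a median of 0.19, and within regions 22, with 3 higher, 2 lower and a median of 0.08. The shares over all genes were 11.3% higher and 9.19% lower, and within regions 6.85% and 5.68%. Hexa, a lysosomal hydrolase gene, stood at 0.77 and 0.69 (0.09 to 1.30). Glb1, lysosomal beta-galactosidase, was lower, at -0.42 and -0.57 (-1.11 to -0.04). Ligands that act on microglia passed in 11 of 15 cases, with 4 higher, 1 lower and a median of 0.37, and within regions in 10, with 2 higher, 1 lower and a median of 0.30. Tgfb1 stood at 1.56 and 0.85 within regions (-0.38 to 2.08), and Il34, a ligand of CSF1R, at 0.49 and 0.33 (-0.19 to 0.85).

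Microglia-rich spots also differed in genes of other cells. The 14 fibroblast and meningeal genes summed to 2248 CPM against 135, a log2 ratio of 4.06 (3.82 to 4.30), and to 556 against 130 CPM without the Mgp/Igf2 region, or 2.10 (1.83 to 2.38). Within regions the ratio was 1.03 (0.67 to 1.39). All 8 that passed were higher, with a median of 4.30, and within regions all 7, with a median of 1.45. Of all genes 11.3% were higher, and 6.85% within regions. Genes of this list can pass the minimum through the microglia-rich spots alone, so these counts are not counts over the list. Without a minimum, all 14 genes of the list had the higher CPM in microglia-rich spots, beside 51.6% of all genes seen. Against all other spots of the range within regions, 3 of 11 were higher, with a median of 0.33, beside 6.29% of all genes. Without the Mgp/Igf2 region in that comparison, 4 of 9 were higher, with a median of 0.57, beside 6.84%. A microglia-rich spot held 0 to 206 UMIs of this list, with a median of 2, and a 0-UMI spot 0 to 14, with a median of 1. It was 0 in 30 microglia-rich and 71 0-UMI spots, and 5 or more in 55 and 4. Mural genes summed to 586 against 96.7 CPM, and hemoglobin and other blood genes to 16166 against 1346. Within regions the log2 ratios of these sums were 0.52 for mural genes (0.02 to 1.01) and 0.85 for blood genes (0.73 to 0.96). The Mgp/Igf2 region had 1 comparison spot there. Against all other spots within regions, 5 of 9 mural and 4 of 4 blood genes were higher, with medians of 0.66 and 0.76. With the Mgp/Igf2 region also left out, 2 of 7 and 1 of 4 were higher, with medians of 0.14 and 0.30. Hba-a2, a hemoglobin gene, had a median of 10.5 against 4 UMIs per spot. Endothelial genes summed to 1056 against 511 CPM, or 0.33 on the log2 scale within regions (0.13 to 0.54), and Cldn5, a tight junction gene of endothelium, stood at 1.55 and 0.64 within regions (-0.36 to 1.63). Border macrophage genes summed to 208 against 13.7 CPM, a log2 ratio of 3.93 (3.20 to 4.76), and 2.16 within regions (1.03 to 3.28). Lymphocyte and granulocyte genes were near absent, with 20 against 10 UMIs over 17 genes.

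Of the border macrophage list, Stab1 alone passed the minimum, with 97 against 12 UMIs, at 3.18 and 1.61 within regions (0.32 to 2.89). Lyve1, Siglec1 and Ccr1, 3 of the 14 genes, were at 0 in microglia-rich spots, and the defining gene Mrc1 had 6 UMIs. The part of meningeal, vessel and border macrophage transcripts in the gene differences above was not tested. In the 30 microglia-rich and 71 0-UMI spots with 0 meningeal UMIs, chosen after the leading genes were seen, the 69 other microglia genes summed to 284 against 419 UMIs, a log2 ratio of 0.93 (0.70 to 1.15). There Vsir stood at 2.22 (0.94 to 3.60), Laptm5 at 1.56 (0.58 to 2.55) and Selplg at 1.33 (0.29 to 2.35), on 15 to 20 UMIs each in microglia-rich spots. Others were nearer 0, with Itgb5 at 0.23 (-0.42 to 0.85), Coro1a at 0.14 (-0.69 to 0.91), Rgs10 at -0.05 (-0.70 to 0.56) and Entpd1 at 0.68 (-1.54 to 2.65). Itgb5, Coro1a and Rgs10 were the genes of the list that passed the minimum there, and their median was 0.14 over these spots. Cd74 had 1 UMI against 6 there, and the border macrophage list 9 against 8, a log2 ratio of 1.66 (0.11 to 3.23).

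Microglia-rich spots differed among themselves. The 35 in the Mgp/Igf2 region held 366 score UMIs and the 115 elsewhere 872. Border macrophage genes were concentrated in the former. Pf4, a chemokine of border macrophages, had 41 UMIs in 18 of the 35 spots and 8 in the other 115, or 11.2 against 0.92 per 100 score UMIs, a log2 ratio of 3.61 (2.50 to 4.91). F13a1, a transglutaminase of the same cells, had 23 against 0. With a floor of 3 counts over the 115 spots its log2 ratio per score UMI was 4.19, with an exact lower counting end of 3.78. Cd163, a scavenger receptor, had 11 against 3, Stab1 64 against 33, Cd74 152 against 25 and H2-Ab1, of class II, 43 against 7. Cd74 was among the leading genes of that region, so its value describes the region.

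Microglia genes outside the score went both ways between these spots. Per score UMI, Selplg was lower in the 35 spots, with 14 UMIs against 87 and a log2 ratio of -1.38 (-2.31 to -0.56), and Siglech, a microglial lectin, had 2 against 20, or -2.07 (-5.21 to -0.03). Entpd1, an enzyme that breaks down extracellular ATP, was higher, with 24 against 27, or 1.08 (0.23 to 1.93). Vsir stood at 0.42 (-0.31 to 1.13), Laptm5 at 0.17 (-0.42 to 0.72) and Ctss at -0.11 (-0.91 to 0.64), with intervals that include 0. Tmem119, a microglial surface gene, had 4 against 12 UMIs, too few to place. The score genes chose the spots and make up the denominator, so their shares only describe how the score was composed. Of 100 score UMIs, P2ry12 supplied 2.19 in the 35 spots and 6.42 in the 115, Trem2 3.01 and 8.49, Cx3cr1 4.37 and 5.85, Tyrobp 5.19 and 4.24, and C1qa 58.2 and 47.5.

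**Figure D4:**
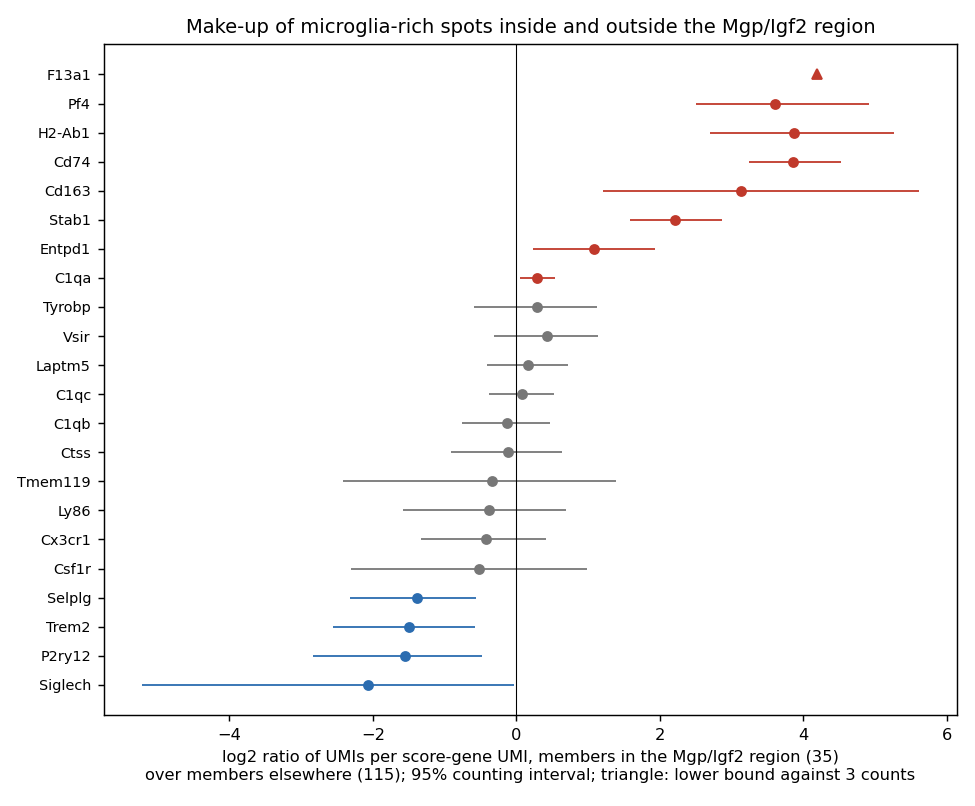
Log2 ratio of UMIs per score-gene UMI, the 35 microglia-rich spots of the Mgp/Igf2 region over the 115 elsewhere, with 95% counting intervals. F13a1 is a triangle, valued with a floor of 3 counts in place of 0. Pf4, Cd74 and H2-Ab1 lie above 3 and Selplg below -1, while the intervals of Vsir, Laptm5 and Ctss include 0. C1qa, C1qb, C1qc, Tyrobp, Cx3cr1, Csf1r, Trem2 and P2ry12 are score genes, shown as a description.

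Places differed in their border macrophage genes. In microglia-rich spots of the Ddn/Glis3 region these were at 107 CPM (57.2 to 184), against 651 (555 to 758) in those of the Mgp/Igf2 region. The 69 other microglia genes were at 2413 CPM (2144 to 2706) and 2465 CPM (2275 to 2666), whose intervals overlap. Within the Ddn/Glis3 region, the list was at 1836 CPM (1615 to 2078) in spots that were not microglia-rich. Postsynaptic genes there were at 16617 CPM in microglia-rich spots (15898 to 17359) and 17530 in the others (16833 to 18247).

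Most astrocyte genes were higher over all spots. All 20 passed, with 15 higher by 1.5-fold and 0 lower and a median of 0.81, beside 11.3% of all genes higher. Within regions 7 of 20 were past 1.5-fold higher, beside 6.85% of all genes. There 19 were above 0 and 1 below, and the median was 0.52. Against all other spots of the range within regions, 1 of 20 was past 1.5-fold higher, near the 6.29% of all genes, with a median of 0.31. Gfap, the intermediate filament of reactive and border astrocytes, had 0 to 132 UMIs per microglia-rich spot, with a median of 3, and 0 to 14 per 0-UMI spot, with a median of 0. It stood at 3.54, at 2.46 without the Mgp/Igf2 region, and at 1.31 within regions (0.89 to 1.72). Of its UMIs, 860 lay in microglia-rich spots of the Mgp/Igf2 region, which had 1 comparison spot, and 444 in the others. Of the reactive astrocyte list, 4 of 4 genes that passed were higher over all spots and 2 of 4 within regions. Against all other spots of the range within regions, 0 of 7 were higher and 1 lower, with a median of 0.42. The shares of all genes were 6.29% and 7.09%. Aqp4, the water channel of astrocyte endfeet, stood at 2.52 and 1.26 (0.41 to 2.11), and Slc1a2, the main glutamate transporter, at 0.82 and 0.53 (0.43 to 0.63).

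Oligodendrocyte genes as a group stood near all genes over all spots. Of 18 that passed, 2 were higher and 0 lower, with a median of 0.11, and within regions 4 of 16 were higher, with a median of 0.34. Among all genes 11.3% were higher over all spots and 6.85% within regions. Mbp, of compact myelin, stood at -0.31 (-0.37 to -0.25) over all spots and 0.21 within regions (0.13 to 0.29), and so turned direction. Oligodendrocyte precursor genes had a median of 0.28, with 0 of 7 past 1.5-fold in either direction, and within regions 0.24, with 1 of 7 higher.

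Presynaptic genes were lower in summed level, at 13829 against 19076 CPM, a log2 ratio of -0.46 (-0.49 to -0.43), while postsynaptic genes were at 10039 against 9401 CPM, or 0.09 (0.06 to 0.13). Excitatory neuron genes stood at -0.29 (-0.33 to -0.24) by sum. Within regions the sums stood at -0.21 for presynaptic (-0.24 to -0.17), -0.0077 for postsynaptic (-0.06 to 0.04) and -0.23 for excitatory neuron genes (-0.29 to -0.17). The 26 presynaptic genes all passed, with 1 higher, 7 lower and a median of -0.33, and within regions with 1 higher, 0 lower and a median of -0.07. Over all genes the shares were 11.3% higher and 9.19% lower, and within regions 6.85% and 5.68%. Snap25, of the vesicle fusion machinery, had a median of 7 UMIs per microglia-rich spot against 15, at -1.01 (-1.11 to -0.91), and at -0.35 within regions (-0.47 to -0.23). Vamp2, its partner on vesicles, stood at -0.50 and -0.42 (-0.53 to -0.32). The 35 postsynaptic genes that passed had a median of -0.01, with 3 higher and 2 lower, and within regions the median of 34 was -0.02, with 0 higher and 1 lower. Camk2a, a kinase of dendrites and spines, stood at 0.91 (0.80 to 1.03) and 0.25 (0.10 to 0.40) within regions. Nlgn2, of inhibitory synapses, stood at -0.57 and -0.45 (-0.81 to -0.10), and Homer1, a scaffold, at -0.56 and -0.51 (-1.10 to 0.08). All levels are shares of a spot's UMIs, so neuronal levels also depend on the share of other transcripts. The part of this in the values above was not tested.

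The immediate early genes, which neurons switch on with activity, had a median of -0.08 with 2 higher and 1 lower of 9, and within regions -0.14, with 1 higher and 1 lower. For all genes the shares were 11.3% higher and 9.19% lower, and within regions 6.85% and 5.68%. Jun stood at 0.90 (0.44 to 1.37) and 0.44 within regions (-0.14 to 1.03). Proliferation genes had 22 against 17 UMIs over 9 genes, of which 0 passed.

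Across all genes, the 15 highest over all spots were led by genes of the meninges, vessels and blood. Slc13a4, a sulfate transporter of the meninges, had 61 UMIs in 33 microglia-rich spots and 0 in 0-UMI spots. With a floor of 3 counts in place of the 0 it was 22.8-fold higher, or 4.51 on the log2 scale, with an exact lower counting end of 4.17. Igf2 was 20.7-fold higher, Mgp 21.3-fold, Myoc 19.5-fold, Acta2 20.8-fold and Slc6a20a 20.7-fold. Bmp6, Fmod, Foxc2, Cyp1b1, Tagln, Igfbp2, Hba-a2, Hbb-bs and Cd74 made up the rest, from 11.8-fold for Hbb-bs to 93.2-fold for Cyp1b1, which had 83 UMIs against 1 and a log2 ratio of 6.54 (4.02 to 11.86). The lowest genes were neuronal genes of the regions where the 0-UMI spots lay. Tph2, which makes serotonin, was 6.81-fold lower, Gchfr 6.53-fold, Ndst4 4.52-fold, Irx2 4.50-fold, Cartpt 3.95-fold and Pvalb 2.62-fold.

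Within regions the order changed. By the lower end of the interval, the leading genes included the dopamine transporter gene Slc6a3 and the prostaglandin synthase gene Ptgds. Slc6a3 was 3.95-fold higher, but 17 of its 64 UMIs came from 1 spot. Ptgds was 2.25-fold higher, with 0 to 2324 UMIs per microglia-rich spot. Pld4, an endolysosomal exonuclease of microglia that no list held, had 47 UMIs in 37 microglia-rich spots against 11 in 11, and was 3.97-fold higher within regions (log2 1.99, 0.83 to 3.15). Gab2, an adaptor of growth factor signalling, was 3.58-fold higher, Ifitm3 3.13-fold and Gfap 2.47-fold. Among the lowest, Tph2 stayed 3.17-fold lower, and Neurod2, a transcription factor of excitatory neurons, was 2.53-fold lower (log2 -1.34, -1.69 to -0.98).

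Few 0-UMI spots lay beside the microglia-rich ones, so all 1242 other spots of the range were also taken as the comparison, within regions and without the Mgp/Igf2 region, a choice made after the regions were seen. With that region kept in, 6.29% of 11167 genes were higher by 1.5-fold and 7.09% lower, and 25 of 45 microglia genes were higher and 1 lower, with a median of 0.62. Without it 11009 genes passed, with 6.84% higher, 8.57% lower and a median of -0.01. Of the 69 other microglia genes 39 passed, with 28 higher and 1 lower and a median of 0.67. The inhibitory receptor gene Lair1 stood at 1.64 (0.83 to 2.46), the lipid phosphatase gene Inpp5d at 1.56 (0.60 to 2.53), the transcription factor gene Irf8 at 1.48 (0.48 to 2.47), Siglech at 1.20 (0.45 to 1.96) and Sall1, a transcription factor of microglia that border macrophages lack, at 1.28 (0.19 to 2.38). Laptm5 stood at 0.96 (0.56 to 1.35), Selplg at 0.67 (0.28 to 1.06) and Ctss at 0.52 (-0.01 to 1.05). Tgfbr1 was the gene of the list past 1.5-fold lower, at -0.96 (-2.14 to 0.22), on 6 UMIs. Of 25 phagocytosis genes 0 were past 1.5-fold in either direction, with a median of 0.09, and postsynaptic genes had a median of -0.01.

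Spots between the 2 extremes gave a graded picture. The spots with score UMIs that were not microglia-rich were ordered by score and cut into 3 classes of 364 or 365. From 0-UMI spots through the low, middle and high class to microglia-rich spots, the 69 other microglia genes stood at 772, 818, 901, 1128 and 1874 CPM. The step from the high class to the microglia-rich spots was the widest, and without the Mgp/Igf2 region the values were 773, 816, 892, 1095 and 1683. Selplg stood at 30.8, 39.8, 46.7, 61.5 and 97.0 CPM, with neighbouring intervals that overlap up to the high class. Meningeal genes stood at 135, 158, 177, 567 and 2248 CPM, and presynaptic genes at 19076, 20079, 20448, 19132 and 13829. The presynaptic level was thus lower in microglia-rich spots than in each of the other 4 classes, also without the Mgp/Igf2 region, where it was 16169. The classes differ in depth, from a median of 9783.5 UMIs in the low class to 8043 in the high class.

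**Figure D5:**
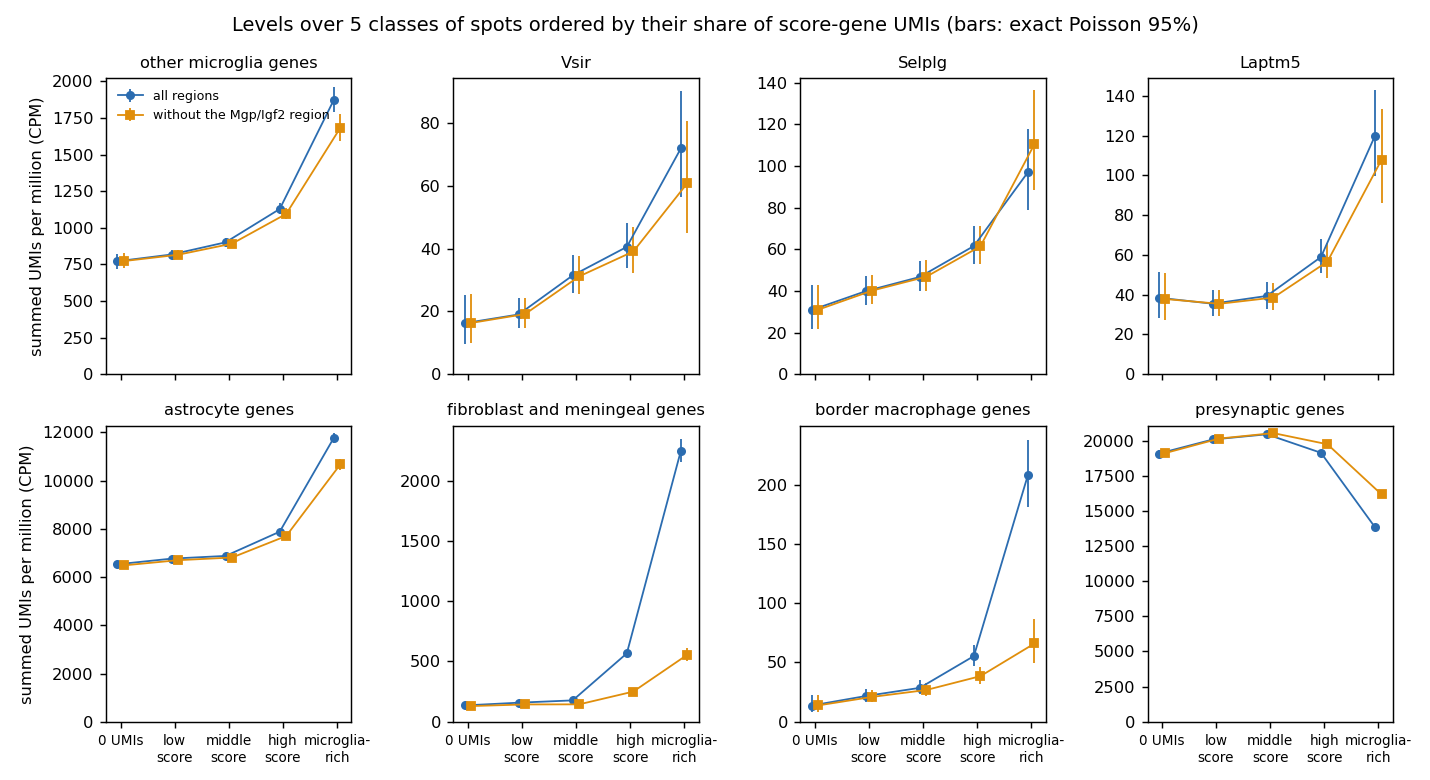
Summed CPM of 8 lists or genes, with exact Poisson 95% intervals, in spots with 0 score UMIs, in 3 classes of rising score and in microglia-rich spots, over all regions (blue) and without the Mgp/Igf2 region (orange). The 69 other microglia genes go from 772 to 1874 CPM, and meningeal genes from 135 to 2248, or 556 without that region.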

How the data were processed

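Visium CytAssist libraries with mouse probes were made from methanol-fixed, stained brain sections, per the labels' protocols. The deposited counts are whole-number UMI counts per gene and spot from Space Ranger 3.1.1, per the file headers, with mm10 named in the submitters' processing notes. Matrix, barcodes and features were identical in both samples' files, so 1 library of 19465 genes and 21695663 UMIs was analysed. Members and gene lists were chosen with earlier results of these data known.

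Counts were summed over spots. Ratios of UMI shares have exact conditional 95% intervals, and values within regions are Mantel-Haenszel ratios. A floor of 3 counts stood in for a sum of 0. Genes needed 50 UMIs over both sets. Where a comparison counts genes, called means past 1.5-fold. Named genes were the 15 highest and 10 lowest by the interval end nearest to 0, with members of the lists. Regions came from Leiden clustering (scanpy 1.11.5, anndata 0.12.19, igraph 0.11.9) at resolution 1, with 2000 variable genes outside the lists, 30 principal components, 15 neighbours, genes in at least 10 spots and spots of at least 500 UMIs. Other tools were Python 3.11.15, numpy 2.4.6, scipy 1.17.1, pandas 2.3.3 and matplotlib 3.10.9. Ratios were tested on simulated data. The probe panel sets how much of each transcript is seen, so levels are not compared between genes. Alternatives varied the number of members, depth range, score genes, position list, count minimum, side of the slide and clustering. Leaving out the Mgp/Igf2 region, keeping spots with 0 meningeal UMIs and taking all other spots as comparison were chosen after seeing the data, as were summed lists within regions. Some genes are not reported here.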

Additional observations from a re-analysis of the deposited data

How the results depend on the processing

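With 1 library no value has a replicate, and counting error does not cover differences between sections. No paired analysis was possible because there is 1 library. Of 153 alternative values of the main results, 96 stayed within counting error or 1.5 times and 57 did not. Of 313 others, 127 did not. On the other side of 0 from the reported median lay 33 of the former and 19 of the latter, and 8 of these 52 belong to medians farther from 0 than their counting error. The causes were not tested.

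Genes past 1.5-fold numbered 1477 of 7223 tested (20.4%). They were 923 at 7500 to 15000 UMIs, 2610 and 382 at minimums of 20 and 200 UMIs, and 968 in the upper array columns. Without the Mgp/Igf2 region they were 931 of 6710 tested (13.9%). In spots with 0 meningeal UMIs they were 500, and against all other spots 2768. Within regions there were 871 of 6952 tested (12.5%), and 1494 of 11167 (13.4%) against all others. In the same settings there were 560 by depth, 1998 and 73 by minimum, and 458 with 0 meningeal UMIs. The number of genes tested differed between settings, so counts given without a share cannot be compared as shares.

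The median log2 ratio of other microglia genes was 1.65. It was 1.90 with 100 members, 1.35 with 250, 1.03 at 7500 to 15000 UMIs, 0.94 with the score from the 5 genes other than C1q, 0.27 at the minimum of 200, 2.01 and 0.87 in the lower and upper columns, 0.14 with 0 meningeal UMIs and 1.29 against all others. Within regions it was 0.82, and 0.50 with 250 members, 0.19 at the minimum of 200, 0.0077 and 0.23 in the lower and upper columns, and -0.13 with 0 meningeal UMIs, where 3 genes were tested.

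For oligodendrocyte genes, 0.11 became -0.033 with 250 members, -0.074 at 5000 to 10000 UMIs, -0.30 at 7500 to 15000, -0.11 with the 5-gene score, -0.15 with the G2-3 position list, 0.33 and -0.27 in the lower and upper columns, -0.065 with 0 meningeal UMIs and 0.42 against all others. For postsynaptic genes, -0.01 became -0.12 with 100 members, 0.16 with 250, 0.25 at 5000 to 10000 UMIs, 0.17 at 7500 to 15000, -0.21 with C1q alone as score, 0.093 with the 5-gene score, 0.10 after thinning and at the minimum of 200, 0.17 and 0.086 in the lower and upper columns, 0.17 without the Mgp/Igf2 region and -0.17 against all others. Within regions it became 0.091 at 7500 to 15000 UMIs.

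For disease-associated genes within regions, 0.50 became 0.27 with 250 members, 0.21 at 7500 to 15000 UMIs, 0.14 with the 5-gene score, 0.26 after thinning, 0.25 and 0.26 at minimums of 20 and 200, 0.24 in the lower columns and 0.23 against all others. Phagocytosis genes within regions went from 0.02 to 0.23 against all others. With 0 meningeal UMIs, medians over all spots turned to -0.17 for phagocytosis, -0.083 for complement, -0.13 for ligands, -0.18 for lysosome, -0.073 for blood and -0.15 for endothelial genes. Precursor genes turned to -0.14 in the upper columns.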
